A study of Mus musculus with 18 samples.

Results

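The genes described here are 47 genes of the G2 and M phases of the cell cycle, the stretch from the end of DNA replication to the separation of the daughter cells. They were chosen by name, with earlier results of these data known, from the 34396 genes of the larger of the 2 expression tables. All 47 were found in both tables. The tables hold RNA sequencing of EGFP-positive cells sorted from retinas of ICR mice, an outbred stock. Retinas were electroporated at postnatal day 0.5 with an EGFP plasmid and a test plasmid, and kept in culture for 3 days. The 18 libraries form 6 groups of 3. In the knockdown table, the retinas of the scramble group (libraries C1 to C3) received a control shRNA plasmid, those of the Nmnat1 knockdown group (N1_1 to N1_3) an shRNA against Nmnat1, and those of the Nmnat2 knockdown group (N2_1 to N2_3) an shRNA against Nmnat2. In the overexpression table the groups are empty vector (v1 to v3), Nmnat1 overexpression and Nmnat2 overexpression, whose libraries are called 1 to 3. Nmnat1 and Nmnat2 encode enzymes that make NAD, the former in the nucleus and the latter in the cytoplasm. All groups share the strain, the EGFP plasmid, the sort and the days in culture. Which promoters drive the plasmids is not stated in the labels, which also leave unsaid whether replicates came from separate animals, so that p-values measure only the spread between these libraries, which may be technical. In each Nmnat2 group 1 library is titled Nmnat3 but described as Nmnat2, and its group was taken from the description.

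Cells enter mitosis when cyclin A and cyclin B activate the kinase Cdk1, and leave it when the anaphase-promoting complex marks the cyclins for destruction. The genes of this programme are transcribed in a wave that peaks in G2 and M. In resting cells and in G1 the DREAM complex holds many of them down through a promoter element called the cell cycle genes homology region (CHR), and later in the cycle B-Myb and FoxM1 join the same MuvB core, while the factor NF-Y binds CCAAT boxes nearby. In the newborn mouse retina, progenitors still divide, and they leave the cycle as rods, bipolar cells, amacrine cells and Müller glia form. In a bulk sample, fewer dividing cells and less of these RNAs in each dividing cell cannot be told apart.

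Promoter windows of 300 bases, from 250 bases before to 50 after the annotated start, were available from RefSeq (GRCm38.p6) for 40 of the 47 genes, as 43 windows. Ccna2, Cdc25c, Aurkb, Spc24, Kif20a, Tpx2 and Smc4 had no entry. A pair of motifs were searched on both strands: TTTGAA or TTCGAA as CHR-type elements, and CCAAT as the CCAAT box. The motifs share no letters that could make one a copy of the other. A CHR-type element was found in 36 of the 43 windows (83.7%), against 19.2% of all 32851 windows of the table, and a CCAAT box in 34 (79.1%), against 37.4% of all windows. Both were found in 74.4% of the members' windows and in 7.52% of all windows. In a list of 68 further G2 and M genes, 51.7% of 60 windows held a CHR-type element, and in a list of 46 S phase genes 14.3% of 42 windows did. These matches are descriptions of letters and not of bound sites. The windows of Kif23, at chr9:61946750-61947049 on the minus strand, and of Cdc25b, at chr2:131186698-131186997 on the plus strand, are printed because these genes were among the 4 members with the smallest p in the Nmnat1 knockdown and hold both motifs, shown in capitals. The windows of the other two, Nuf2 and Nusap1, hold neither set of letters.
Kif23: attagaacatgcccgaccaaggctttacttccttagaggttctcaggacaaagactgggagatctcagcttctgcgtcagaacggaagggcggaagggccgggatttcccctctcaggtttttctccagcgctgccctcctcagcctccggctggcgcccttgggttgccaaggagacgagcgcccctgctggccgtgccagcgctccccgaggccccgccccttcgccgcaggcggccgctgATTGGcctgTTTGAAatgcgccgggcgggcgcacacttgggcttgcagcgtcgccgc
Cdc25b: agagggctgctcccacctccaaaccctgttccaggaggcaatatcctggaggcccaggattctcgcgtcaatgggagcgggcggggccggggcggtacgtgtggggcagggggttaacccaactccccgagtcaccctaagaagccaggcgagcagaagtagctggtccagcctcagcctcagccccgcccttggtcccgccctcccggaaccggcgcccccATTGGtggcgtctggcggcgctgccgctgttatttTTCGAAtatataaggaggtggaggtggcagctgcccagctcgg
In Kif23 the CCAAT box lies on the reverse strand, 7 bases before the annotated start, and the CHR-type element begins 2 bases after it. In Cdc25b the CCAAT box, also on the reverse strand, begins 28 bases before the start and the CHR-type element 7 bases after it. Over the 43 windows, 36 of the 49 CHR-type matches and 51 of the 75 CCAAT matches lay between 100 bases before and 50 bases after the start.

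**Figure D1:**
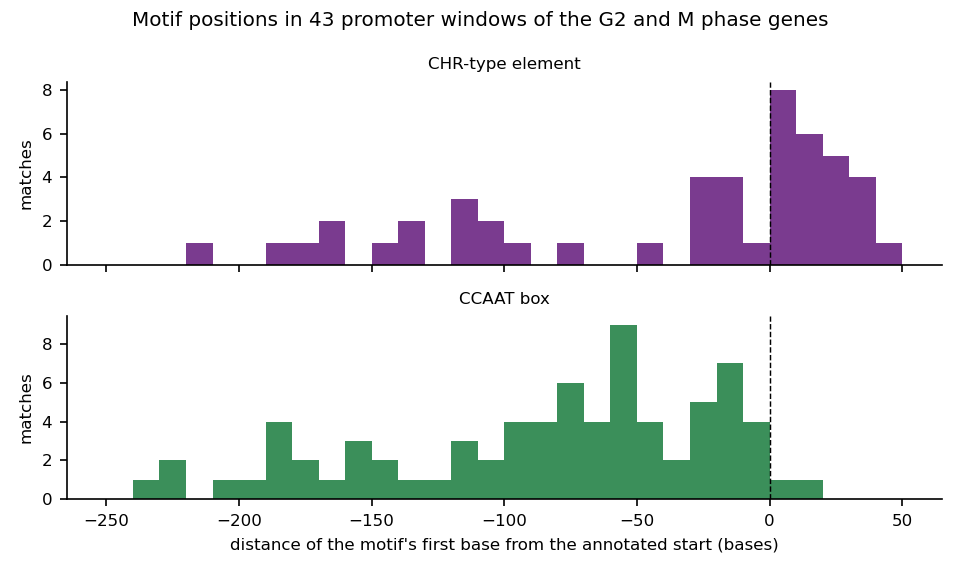
Positions of motif matches in the 43 RefSeq promoter windows of the G2 and M phase genes. The x axis gives the distance in bases of the motif's first base from the annotated start (dashed line) and the y axis the number of matches in bins of 10 bases; the median distance was -5 bases for the 49 CHR-type matches (top) and -71 bases for the 75 CCAAT matches (bottom).

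Levels are given as parts per 1000000 of the summed, length-scaled signal of a library (ppm). Low values in genes with a single transcript lay near whole reads. By that step 1 ppm was worth between 12.55 and 20.95 reads in a transcript of 1 kb in the knockdown table. In the overexpression table it was worth between 11.29 and 16.8. A member at 1 ppm with a transcript near that length thus rests on few reads, and one with a longer transcript on more. The libraries of a table differed in depth from 0.772 to 1.355 times the median library (knockdown) and from 0.818 to 1.131 times (overexpression). Library N2_2 stood apart from the other 8 of its table: it correlated with the other Nmnat2 knockdown libraries at 0.896 and 0.898, where those correlated with each other at 0.982, and 6.51% of its signal was mitochondrial, against at most 4.67% in the others. In the overexpression table the 3 libraries numbered 1 stood apart on the leading component of variance. Nmnat1 was at 16.96 to 20.94 ppm in scramble and 7.37 to 8.54 ppm in the Nmnat1 knockdown libraries (log2 fold change -1.18 ± 0.25 SE, limma adjusted p = 0.130). Nmnat2 was at 0.624 to 6.22 ppm in scramble and 0.503 to 1.27 ppm in the Nmnat2 knockdown libraries, groups that overlap. With overexpression Nmnat1 reached 14800 to 27830 ppm and Nmnat2 20910 to 22820 ppm. Rod photoreceptor markers, the defining genes of the most common retinal cell, summed to between 2722 and 7313 ppm in the knockdown table, and none of the marker genes of 12 cell types searched was at 0 in all libraries of a table.

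Most of the 47 genes were at low levels in these cells, as were many other genes. The median of the members' mean levels was 5.43 ppm in the knockdown table and 5.18 ppm in the overexpression table. For all genes that passed the filter given below it was 6.03 and 7.77 ppm. Bub3, a spindle checkpoint protein that also works outside mitosis, was by far the most abundant, at 115.4 to 168.4 ppm over the 18 libraries and with a coefficient of variation of 9.33%. It was followed by Kif22, a chromosome-arm kinesin, with a mean of 34.6 ppm, Smc4, a condensin subunit, with 25.4 ppm, and Cdc25b, a phosphatase that activates Cdk1, with 16.1 ppm. Among the knockdown libraries, 23 members had a mean under 5 ppm, 21 lay from 5 to 20 ppm and 3 above, and the overexpression libraries gave the same counts. No member was at 0 in any library. A filter of 1 ppm in at least 3 of 9 libraries was passed by 46 members in the knockdown table, where Kif4, a chromokinesin at 0.284 to 1.88 ppm, did not pass, and by all 47 in the overexpression table.

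The most abundant member of each role group was also read in every library. Bub3 was at 146.9, 143.4 and 135.6 ppm in scramble, 150.3, 147.8 and 141.7 ppm in the Nmnat1 knockdown and 168.4, 115.4 and 158.4 ppm in the Nmnat2 knockdown, and at 129.1, 155.0 and 138.9 ppm with empty vector, 127.5, 151.4 and 152.9 ppm with Nmnat1 overexpression and 122.9, 149.0 and 151.2 ppm with Nmnat2 overexpression. All its groups overlapped their control. Cdc20, the activator of the anaphase-promoting complex, was at 14.4, 14.96 and 13.5 ppm in scramble, 15.4, 15.2 and 9.52 ppm in the Nmnat1 knockdown, 14.3, 13.2 and 16.1 ppm in the Nmnat2 knockdown, 10.9, 16.9 and 15.6 ppm with empty vector, 10.2, 12.99 and 11.49 ppm with Nmnat1 overexpression and 8.79, 13.4 and 15.7 ppm with Nmnat2 overexpression. It too overlapped its control in every group. Racgap1, a GTPase regulator of the midzone, was at 6.42, 8.92 and 12.1 ppm in scramble, 7.49, 5.56 and 8.66 ppm in the Nmnat1 knockdown, 5.06, 2.74 and 6.19 ppm in the Nmnat2 knockdown, 7.94, 8.05 and 10.5 ppm with empty vector, 6.78, 7.28 and 4.43 ppm with Nmnat1 overexpression and 7.02, 4.16 and 12.5 ppm with Nmnat2 overexpression. It was below its control without overlap in the Nmnat2 knockdown and with Nmnat1 overexpression. Cdca8 (borealin), of the chromosomal passenger complex, was at 9.74, 4.40 and 9.37 ppm in scramble, 2.26, 4.18 and 4.45 ppm in the Nmnat1 knockdown, 4.70, 4.90 and 6.72 ppm in the Nmnat2 knockdown, 6.87, 5.91 and 3.85 ppm with empty vector, 6.90, 5.45 and 5.62 ppm with Nmnat1 overexpression and 3.31, 4.60 and 4.21 ppm with Nmnat2 overexpression, and overlapped its control throughout. In the overexpression table Cdc25b was at 12.5, 14.4 and 15.6 ppm with empty vector, 10.3, 17.2 and 24.2 ppm with Nmnat1 overexpression and 10.8, 23.1 and 17.3 ppm with Nmnat2 overexpression. Smc4 was at 28.8, 24.2 and 21.5 ppm, 28.6, 19.0 and 19.3 ppm, and 42.6, 25.2 and 19.8 ppm in the same order, and Ckap2 at 9.199, 5.88 and 9.70 ppm, 11.1, 7.89 and 9.19 ppm, and 10.6, 9.03 and 8.42 ppm. These 3 genes overlapped empty vector in both overexpression groups.

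In both knockdown groups the members' summed level was below that of every scramble library. The sum was 604.9, 542.9 and 551.6 ppm in scramble libraries C1, C2 and C3. It was 438.7, 449.9 and 448.7 ppm in the Nmnat1 knockdown libraries. It was 461.2, 431.6 and 451.6 ppm in the Nmnat2 knockdown libraries, so that neither knockdown group overlapped scramble, and both were compared with the same 3 scramble libraries. Without Bub3, Kif22 and Smc4, which held much of the sum, the other 44 genes gave 334.9 to 376.9 ppm in scramble, 208.3 to 252.6 ppm in the Nmnat1 knockdown and 243.0 to 249.8 ppm in the Nmnat2 knockdown. In the overexpression table the sums overlapped: 421.8, 506.2 and 473.9 ppm with empty vector, 425.6, 434.5 and 458.4 ppm with Nmnat1 overexpression, and 488.0, 422.1 and 436.6 ppm with Nmnat2 overexpression. A list of 68 further G2 and M genes summed to 1450, 1306 and 1381 ppm in scramble. Their sum was 1298, 1260 and 1304 ppm in the Nmnat1 knockdown, the highest just under the lowest scramble library. It was 1385, 958.5 and 1350 ppm in the Nmnat2 knockdown, which overlaps scramble. In that knockdown 66.9% of all genes had a lower mean log2 level than in scramble. These sums are descriptions and were not tested.

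**Figure D2:**
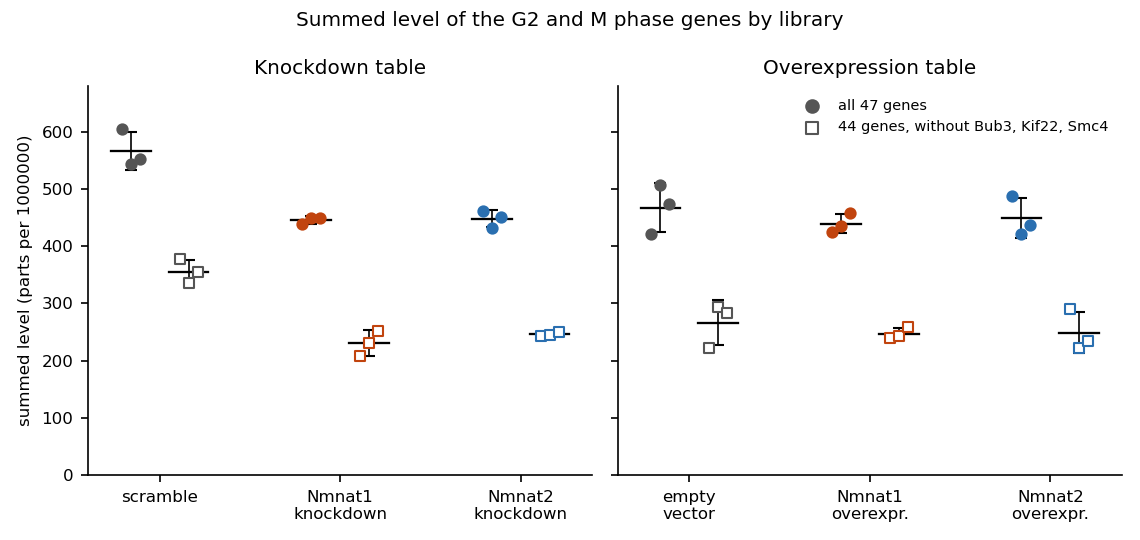
Summed level of the G2 and M phase genes in each library (y axis, parts per 1000000), by group, in the knockdown table (left) and the overexpression table (right). Filled circles are all 47 genes and open squares the 44 genes without Bub3, Kif22 and Smc4; lines and bars are the mean and SD of 3 libraries. The scramble libraries (542.9 to 604.9) lie above all 6 knockdown libraries (431.6 to 461.2), whereas the overexpression groups overlap their control.

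The comparison of Nmnat1 knockdown with scramble asks which transcripts differ in retinal cells that carry a hairpin RNA against Nmnat1, the gene of the nuclear NAD-synthesising enzyme. Of the 47 members, 38 had a lower mean log2 level than in scramble and 9 a higher one, with a median log2 fold change of -0.46, where the median of all genes tested was -0.003 and 50.3% of them were lower. In 14 members all 3 knockdown libraries were below all 3 scramble libraries, and in none were all 3 above, where 12% of all genes were lower without overlap and 12.8% higher. No single member passed adjusted p under 0.05 in limma, as against 32 of 22233 genes (0.144%). At an unadjusted p under 0.05, 10 members were lower and none higher, where 5.64% and 4.88% of all genes were.

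Among the entry kinases, cyclins and phosphatases all 8 members had a lower mean log2 level in the Nmnat1 knockdown, with a median of -0.82, and 4 did not overlap scramble. Cdc25b (chr2:131186949-131198497, GRCm38) was at 19.4, 22.99 and 14.48 ppm in scramble. It was at 3.94, 5.90 and 5.46 ppm in the Nmnat1 knockdown (5.10 ± 1.03, SD, n = 3). Every Nmnat1 knockdown library was thus below every scramble library, with a log2 fold change of -1.70 ± 0.52 (SE) and a limma adjusted p of 0.287. Cdk1, the kinase at the centre of mitotic entry, was at 14.9, 10.8 and 11.49 ppm in scramble and 4.28, 6.06 and 8.76 ppm in the Nmnat1 knockdown. Its cyclin partner Ccna2 was at 6.45, 5.83 and 6.36 ppm against 2.71, 4.09 and 3.29 ppm. Both sets were without overlap. Ccnb1, the cyclin of mitosis itself, was at 6.19, 11.8 and 8.88 ppm against 0.502, 4.03 and 6.63 ppm, where the highest knockdown library reached into the scramble range. Aurka, a centrosomal kinase, was at 10.3 to 14.7 ppm in scramble and 6.52 to 7.77 ppm in the Nmnat1 knockdown, also without overlap. Ccnb2, Plk1 and Cdc25c overlapped scramble.

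Kif23 (chr9:61915905-61946774), a kinesin of the spindle midzone that is needed for cytokinesis, had the smallest p of the members in the Nmnat1 knockdown. It was at 11.9, 6.39 and 6.35 ppm in scramble. It was at 1.83, 0.830 and 0.871 ppm in the Nmnat1 knockdown, so that the highest of these was below the lowest scramble library. The log2 fold change was -2.06 ± 0.39 (SE), with a limma adjusted p of 0.0928. Of the other kinesins, Kif2c, which takes microtubules apart at centromeres, was at 3.14 to 10.4 ppm in scramble and 1.76 to 2.6 ppm in the Nmnat1 knockdown, without overlap. Kif22 went the other way in mean, at 36.9, 38.2 and 30.9 ppm in scramble and 56.9, 45.1 and 35.8 ppm in the Nmnat1 knockdown, groups that overlap. It was at 27.9, 53.3 and 23.7 ppm in the Nmnat2 knockdown. Kif11, Kif20a, Kif20b and Kif4 overlapped scramble too.

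Nuf2 (chr1:169497934-169531464), a subunit of the Ndc80 complex that holds microtubules at the kinetochore, was at 7.53, 4.28 and 5.55 ppm in scramble. It was at 0.551, 1.48 and 0.699 ppm in the Nmnat1 knockdown, again without overlap (log2 fold change -1.83 ± 0.44 SE, limma adjusted p = 0.170). The other 3 subunits of that complex overlapped scramble: Spc24 was at 9.31 to 19.0 ppm against 10.2 to 13.4 ppm, Spc25 at 4.61 to 11.3 ppm against 4.17 to 10.5 ppm, and Ndc80, the scarcest, at 0.569 to 1.33 ppm against 0.341 to 1.34 ppm. Cenpf, a large protein of the outer kinetochore, was at 7.48, 6.20 and 4.05 ppm in scramble and 0.961, 2.37 and 2.95 ppm in the Nmnat1 knockdown, without overlap (log2 fold change -1.19 ± 0.45 SE, limma adjusted p = 0.390). Cenpa, the histone H3 variant that marks centromeres, was at 8.46, 26.1 and 14.8 ppm against 3.02, 9.63 and 10.1 ppm, which overlap.

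Nusap1 (chr2:119618298-119651244), which binds and bundles spindle microtubules, was at 3.51, 4.76 and 3.87 ppm in scramble and 2.08, 0.970 and 0.521 ppm in the Nmnat1 knockdown. The groups did not overlap (log2 fold change -1.26 ± 0.38 SE, limma adjusted p = 0.287). Ckap2, another spindle protein, was at 20.9, 18.8 and 16.9 ppm against 13.3, 9.47 and 14.6 ppm, also without overlap, whereas Hmmr, Prc1 and Tpx2 overlapped. Birc5 (survivin), of the chromosomal passenger complex, was at 4.68 to 5.70 ppm in scramble and 1.92 to 4.52 ppm in the Nmnat1 knockdown, without overlap. Its partners Cdca8 and Aurkb overlapped.

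The spindle checkpoint, which delays anaphase until all kinetochores are attached, was near scramble in the Nmnat1 knockdown except for Bub1. Bub1 (chr2:127801122-127831865), a checkpoint kinase, was at 7.87, 8.94 and 11.3 ppm in scramble and 5.32, 5.30 and 6.68 ppm in the Nmnat1 knockdown, without overlap. Mad2l1, which carries the checkpoint signal, was at 9.83 to 14.8 ppm against 12.3 to 15.3 ppm, and Ttk at 2.03 to 6.94 ppm against 3.22 to 4.56 ppm. Of the chromosome structure genes, Smc4 and the proliferation marker Mki67 were lower without overlap: Mki67 was at 2.16 to 4.57 ppm in scramble and 0.481 to 1.89 ppm in the Nmnat1 knockdown. Top2a, which untangles sister DNA, was at 9.51 to 10.1 ppm against 6.44 to 11.1 ppm, and Ncapg, Ncaph and Smc2, the other condensin subunits, also overlapped. None of the contractile ring genes Ect2, Anln and Racgap1 or of the mitotic exit genes Cdc20, Ube2c and Cdca3 was without overlap.

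The Nmnat1 knockdown calls depended on how the spread was estimated. All 3 groups of the table shared 1 estimate, and library N2_2, of the other knockdown, entered it. With scramble and the Nmnat1 knockdown fitted alone, 3 members passed the threshold, all lower: Cdc25b (adjusted p = 0.0113), Kif23 (0.0255) and Nuf2 (0.0414), where 1.96% of all genes passed as lower. With N2_2 left out of the 3-group fit the same 3 members passed, with adjusted p of 0.00269, 0.00972 and 0.0156, where 3.6% of all genes passed as lower.

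**Figure D3:**
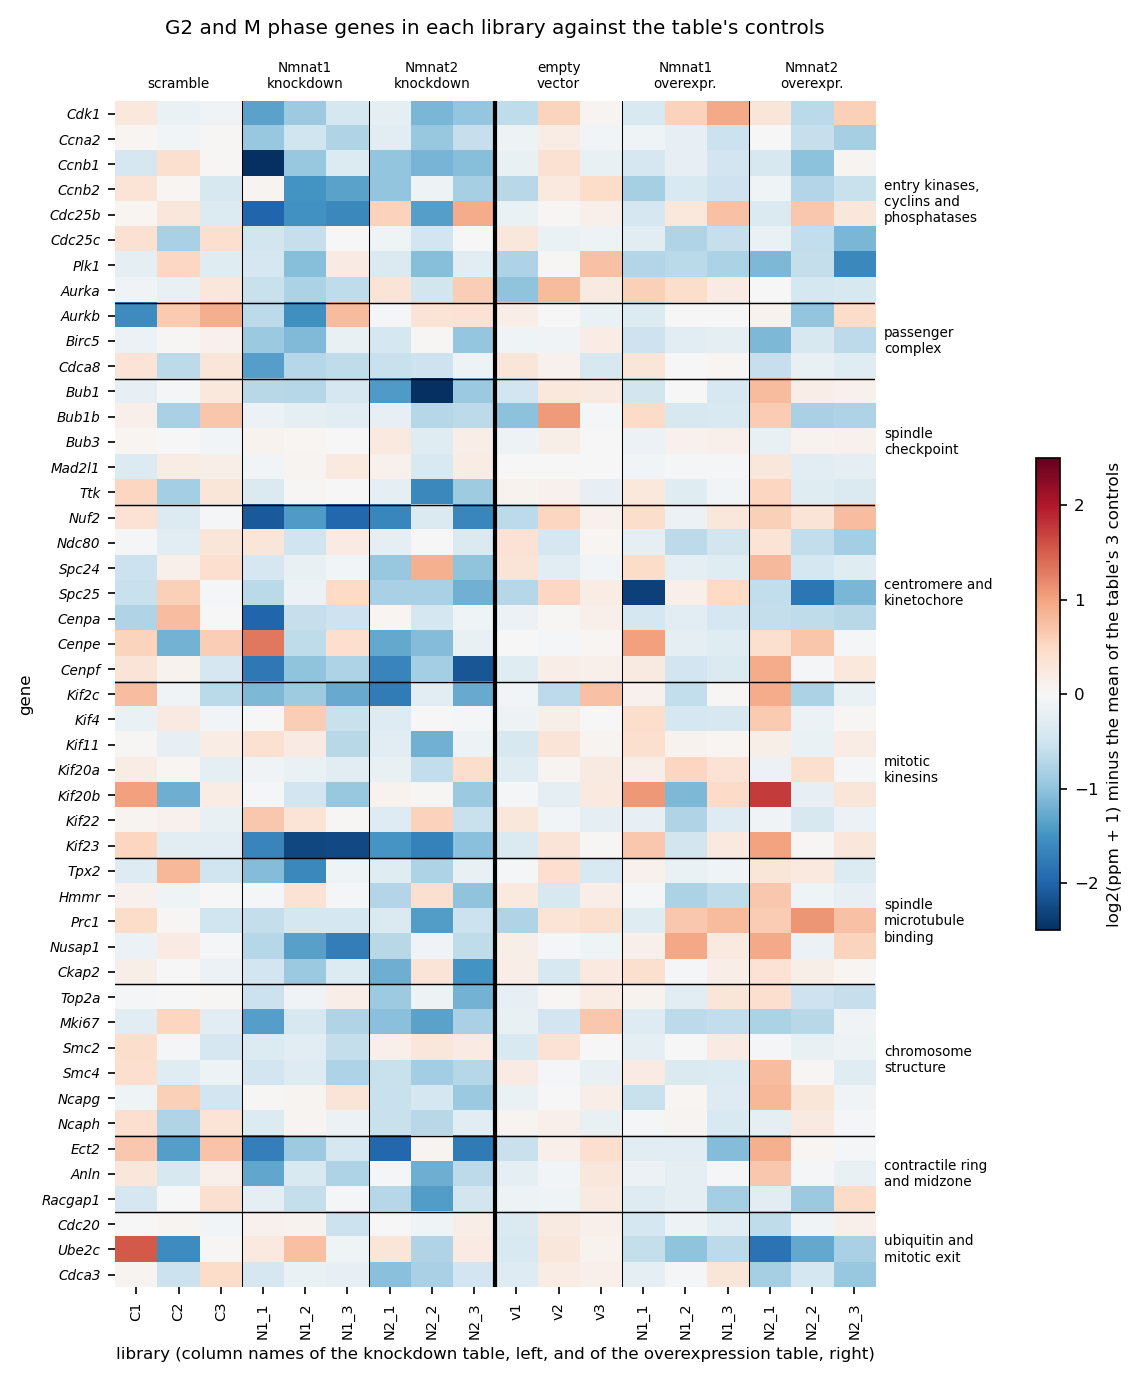
Level of each of the 47 genes in each of the 18 libraries, as log2(ppm + 1) minus the mean of the 3 control libraries of the same table (colour scale, blue lower and red higher); rows are genes grouped by role, columns are libraries, and the thick line separates the 2 tables. Kif23, Nuf2 and Cenpf are blue in all 6 knockdown libraries, Cdc25b is blue in the 3 Nmnat1 knockdown libraries and N2_2, and Bub3 is near white throughout.

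The comparison of Nmnat2 knockdown with scramble used the same 3 scramble libraries. Of the 47 members, 41 had a lower mean log2 level and 6 a higher one, with a median log2 fold change of -0.54. All genes were shifted too: their median was -0.23, and 66.9% of them were lower. In 12 members all 3 knockdown libraries were below all 3 scramble libraries and in none above, where 17.2% of all genes were lower without overlap and 4.73% higher. No member passed adjusted p under 0.05 in limma, as against 97 of 22233 genes (0.436%). At an unadjusted p under 0.05, 10 members were lower and none higher, where 13.4% and 3.41% of all genes were. With quantile normalization, which moved the median of all genes from -0.23 to -0.001, the members' median was -0.08.

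Kif23 was at 2.19, 1.75 and 3.31 ppm in the Nmnat2 knockdown, all below the scramble libraries given above (log2 fold change -1.41 ± 0.39 SE, limma adjusted p = 0.123). Bub1 was at 2.82, 0.212 and 4.38 ppm, also below scramble in each library (-1.81 ± 0.50 SE, adjusted p = 0.124). Cenpf (chr1:189640606-189688086) was at 1.17, 2.74 and 0.541 ppm, without overlap with scramble (-1.54 ± 0.45 SE, adjusted p = 0.137). Smc4 (chr3:69004738-69034623) was at 44.2, 26.5 and 29.9 ppm in scramble and 21.9, 17.5 and 19.7 ppm in the Nmnat2 knockdown, without overlap (-0.71 ± 0.25 SE, adjusted p = 0.205). It was at 23.2, 26.2 and 18.7 ppm in the Nmnat1 knockdown. Nuf2 was at 1.15, 4.15 and 1.16 ppm in the Nmnat2 knockdown, with N2_2 just under the lowest scramble library (-1.21 ± 0.44 SE, adjusted p = 0.210). In all, 4 members were below scramble without overlap here and overlapped scramble in the Nmnat1 knockdown: Ccnb1, at 3.35 to 3.86 ppm, Racgap1, given above, Spc25, at 2.56 to 3.70 ppm, and Top2a, at 3.75 to 8.93 ppm. Ccna2, Cdk1 and Mki67 were without overlap in both knockdowns, with Ccna2 at 2.74 to 5.03 ppm, Cdk1 at 4.99 to 10.4 ppm and Mki67 at 0.519 to 1.20 ppm in the Nmnat2 knockdown.

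Library N2_2 decided several of these values. It was above both other Nmnat2 knockdown libraries in 16 of the 47 members and below both in 25. These counts were near the shares of all genes, 36.4% and 51.9%, so that N2_2 differed in the members about as often as elsewhere. Ckap2 was at 7.47 and 6.06 ppm in N2_1 and N2_3 and at 23.8 ppm in N2_2, above every scramble library. Hmmr, a spindle assembly factor, was at 5.99 and 4.75 ppm against 14.3 ppm, and Ect2, the exchange factor that starts the contractile ring, at 2.24 and 2.70 ppm against 12.3 ppm. In 22 of the 47 members both N2_1 and N2_3 were below every scramble library, where 27.6% of all genes were. Without N2_2, which leaves 2 libraries in the group, 6 members passed adjusted p under 0.05 in limma, all lower: Ckap2 (log2 fold change -1.36, adjusted p = 0.00544), Cenpf (-1.89, 0.0196), Nuf2 (-1.63, 0.0253), Bub1 (-1.18, 0.0298), Top2a (-1.05, 0.0363) and Hmmr (-0.87, 0.0446). In that fit 7.51% of all genes passed as lower, so the count of members is to be read against a large share of genes.

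**Figure D4:**
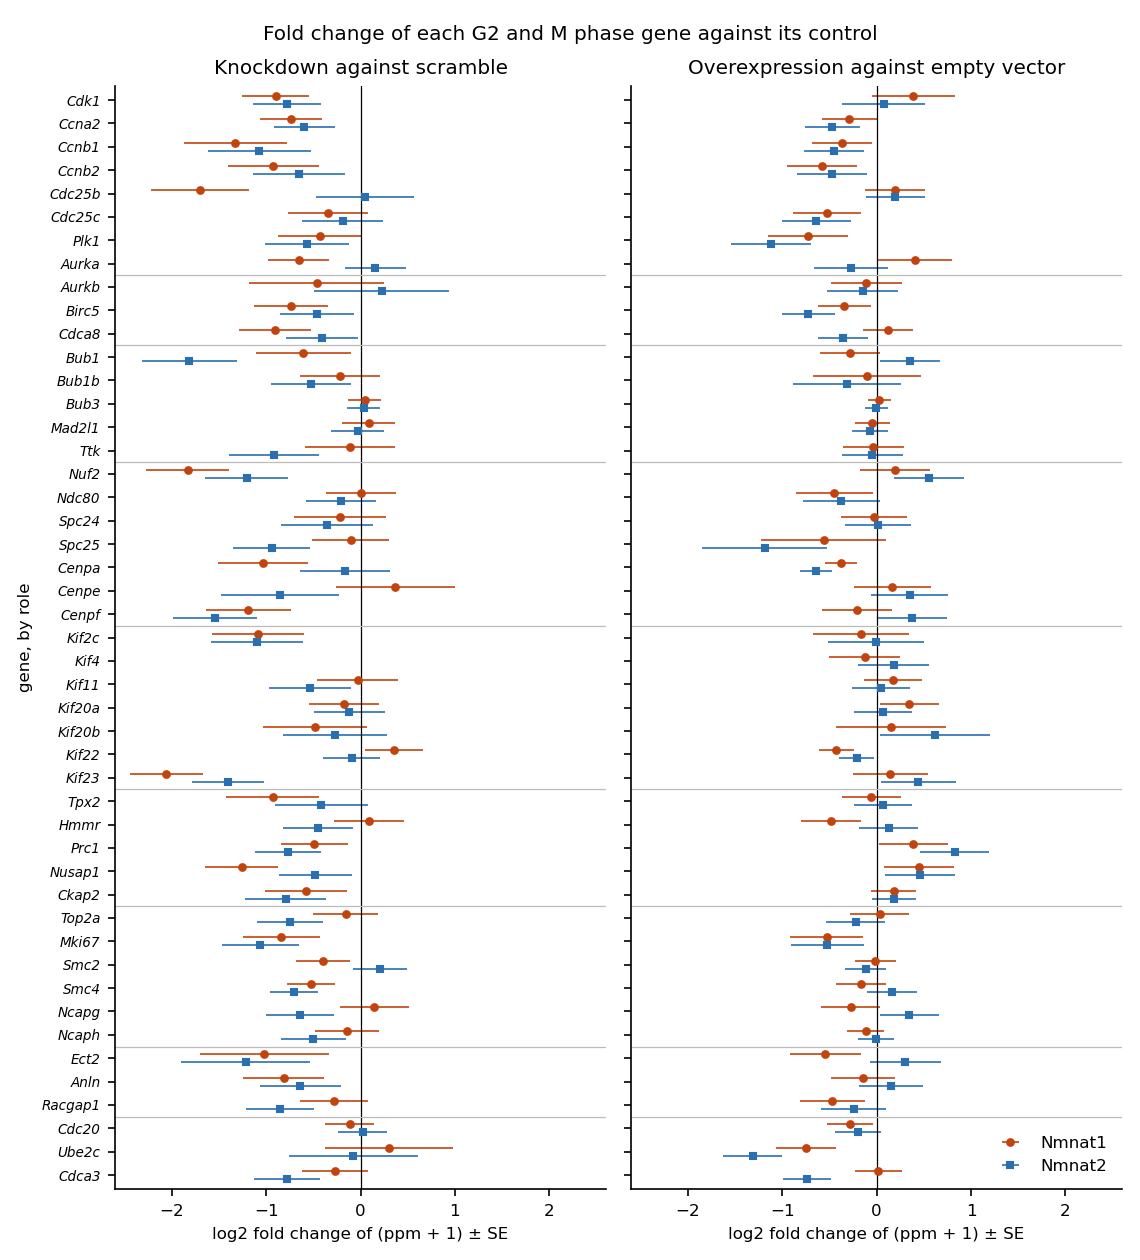
Log2 fold change with its standard error (x axis) of each gene (y axis, grouped by role) against the control of its own table, from limma; circles are Nmnat1 and squares Nmnat2, for knockdown on the left and overexpression on the right. Kif4 was not tested in the knockdown table. On the left the points lie mostly below 0, with medians of -0.46 and -0.54; on the right they lie on both sides, with medians of -0.12 and -0.01.

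Nmnat1 and Nmnat2 knockdown were also set against each other, which tests the difference itself. No member passed adjusted p under 0.05 in limma, as against 458 of 22233 genes (2.06%), and 2 members were lower and 1 higher at an unadjusted p under 0.05, where 4.54% and 11.9% of all genes were. The smallest p belonged to Cdc25b, which was at 28.4 and 36.5 ppm in N2_1 and N2_3, above every scramble library, and at 6.58 ppm in N2_2. Between the Nmnat1 and the Nmnat2 knockdown it differed by a log2 fold change of -1.75 ± 0.52 (SE, adjusted p = 0.130), and by -2.46 (adjusted p = 0.000231) when N2_2 was left out. Aurka was at 15.2, 8.36 and 18.7 ppm in the Nmnat2 knockdown, above all 3 Nmnat1 knockdown libraries (-0.81 ± 0.32 SE, adjusted p = 0.247). Without N2_2 the difference in Aurka was -1.12 (adjusted p = 0.0131). Bub1 was higher in the Nmnat1 than in the Nmnat2 knockdown without overlap (1.21 ± 0.50 SE, adjusted p = 0.268). In all, 6 members were lower and 4 higher in the Nmnat1 knockdown without overlap, where 6.37% and 19% of all genes were. Without N2_2, Cdc25b and Aurka were the 2 members that passed as lower and Hmmr and Kif22 the 2 that passed as higher, where 7.02% and 6.52% of all genes passed. Over all 47 members the median log2 fold change was 0.14, where that of all genes was 0.25, and its sign changed with the scaling and with N2_2.

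The overexpression comparisons used 3 empty vector libraries in common. With Nmnat1 overexpression, 31 members had a lower and 16 a higher mean log2 level, with a median of -0.12 (all genes -0.04, with 55.2% lower). With Nmnat2 overexpression 26 were lower and 21 higher, with a median of -0.01 (all genes 0.06, with 43% lower). Without overlap, 7 members were lower and none higher with Nmnat1 overexpression, where 10.1% and 7.74% of all genes were, and 5 were lower and 1 higher with Nmnat2 overexpression, where 7.73% and 8.6% were. No member passed adjusted p under 0.05 in limma in either comparison, as against 25 (0.121%) and 114 (0.55%) of 20725 genes. At an unadjusted p under 0.05, 3 members were lower and none higher with Nmnat1 overexpression, where 5.13% and 4.44% of all genes were, and 5 were lower and 1 higher with Nmnat2 overexpression, where 5.27% and 5.01% were.

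Ube2c (chr2:164769898-164778822), the ubiquitin-conjugating enzyme that works with the anaphase-promoting complex, had the smallest p of the members in both overexpression comparisons. It was at 6.77, 11.2 and 9.76 ppm with empty vector. It was at 5.63, 4.02 and 5.42 ppm with Nmnat1 overexpression and at 1.78, 3.16 and 4.72 ppm with Nmnat2 overexpression. Neither group overlapped empty vector, with log2 fold changes of -0.75 ± 0.32 (SE, adjusted p = 0.475) and -1.31 ± 0.32 (SE, adjusted p = 0.118). Cenpa (chr5:30666777-30674830) was at 13.9, 15.7 and 16.8 ppm with empty vector. It was at 11.1, 12.5 and 11.3 ppm with Nmnat1 overexpression (-0.38 ± 0.17 SE, adjusted p = 0.503) and at 9.88, 9.54 and 9.12 ppm with Nmnat2 overexpression (-0.64 ± 0.17 SE, adjusted p = 0.147), all below every empty vector library. The spread of Cenpa within these groups was small, with SDs of 1.503, 0.772 and 0.385 ppm.

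Cdca3 (chr6:124829547-124833701), which helps to destroy the mitosis inhibitor Wee1, was at 6.75, 10.1 and 9.59 ppm with empty vector and 4.47, 6.18 and 4.03 ppm with Nmnat2 overexpression, without overlap (-0.73 ± 0.25 SE, limma adjusted p = 0.312). With Nmnat1 overexpression it was at 7.35, 8.48 and 10.96 ppm, within the range of empty vector but for 1 library. Plk1 (chr7:122159439-122169873), a kinase of mitotic entry and exit, was at 1.42, 3.201 and 5.81 ppm with empty vector. It was at 1.49, 1.58 and 1.39 ppm with Nmnat1 overexpression (-0.73 ± 0.43 SE, adjusted p = 0.678) and 0.882, 1.70 and 0.335 ppm with Nmnat2 overexpression (-1.12 ± 0.43 SE, adjusted p = 0.377), and both overlapped empty vector. Kif22 (chr7:127027729-127042471) was at 42.7, 33.0 and 29.8 ppm with empty vector and 29.99, 20.3 and 27.7 ppm with Nmnat1 overexpression, which overlap (-0.43 ± 0.19 SE, adjusted p = 0.503), and at 32.8, 26.1 and 31.3 ppm with Nmnat2 overexpression. Birc5 and Cdc25c were the remaining members below every empty vector library in both overexpression groups. Prc1, which bundles midzone microtubules, was the 1 member above empty vector without overlap, at 4.01 to 10.1 ppm with empty vector and 12.01 to 17.2 ppm with Nmnat2 overexpression.

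The genes that stood out in one table were read in the other. Kif23 was at 1.27, 2.64 and 1.98 ppm with empty vector, 3.63, 1.11 and 2.43 ppm with Nmnat1 overexpression and 4.85, 1.98 and 2.55 ppm with Nmnat2 overexpression. Nuf2 was at 0.582, 2.64 and 1.70 ppm, 2.40, 1.27 and 2.03 ppm, and 2.76, 2.11 and 3.23 ppm in the same order, and Cenpf at 0.846, 1.57 and 1.48 ppm, 1.67, 0.630 and 0.763 ppm, and 3.31, 1.19 and 1.72 ppm. All 3, which were below scramble in both knockdowns, overlapped empty vector in both overexpression groups. Bub1 was at 2.78, 5.31 and 5.18 ppm, 2.85, 4.31 and 3.02 ppm, and 8.10, 4.92 and 4.70 ppm in that order, and Nusap1 at 2.09, 1.74 and 1.61 ppm, 2.05, 4.53 and 2.33 ppm, and 4.43, 1.55 and 3.15 ppm, again with overlap. In the Nmnat2 knockdown Nusap1 was at 2.09, 3.71 and 2.21 ppm, and Cenpa at 15.6, 10.8 and 13.8 ppm, both within reach of scramble. In the knockdown table Ube2c was at 12.6, 0.581 and 3.79 ppm in scramble, 4.55, 6.95 and 3.36 ppm in the Nmnat1 knockdown and 4.79, 1.80 and 4.44 ppm in the Nmnat2 knockdown. Cdca3 was at 7.77, 4.71 and 10.5 ppm, 5.19, 6.39 and 6.20 ppm, and 3.05, 3.71 and 4.96 ppm, and Plk1 at 1.76, 3.57 and 1.61 ppm, 1.40, 0.528 and 2.68 ppm, and 1.49, 0.536 and 1.65 ppm. These 3, which led in the overexpression table, overlapped scramble in both knockdowns.

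The libraries numbered 1 bore on the overexpression calls. With those 3 left out, which leaves 2 libraries a group, Ube2c passed the threshold with Nmnat1 overexpression (log2 fold change -1.01, limma adjusted p = 0.0422), where 4.94% of all genes passed as lower. With Nmnat2 overexpression, 4 members passed, all lower: Spc25 (-1.83, adjusted p = 0.00663), Ube2c (-1.23, 0.0255), Cenpa (-0.74, 0.0261) and Aurka (-0.92, 0.0497), where 3.53% of all genes passed as lower. Between Nmnat1 and Nmnat2 overexpression no member passed in limma, as against 4 of 20725 genes (0.0193%), and 1 member was lower and 1 higher at an unadjusted p under 0.05, where 3.05% and 1.41% of all genes were. Without overlap, 2 members were lower and 4 higher with Nmnat1 than with Nmnat2 overexpression, where 5.22% and 3.12% of all genes were.

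Other genes of the same programme were read from a list of 68 G2 and M genes. In the Nmnat1 knockdown 65 were tested, 40 were lower and 25 higher, with a median of -0.25 (all genes -0.003, with 50.3% lower), and in the Nmnat2 knockdown 51 were lower and 14 higher, with a median of -0.31 (all genes -0.23, with 66.9% lower). None passed the threshold in any comparison with a control, and at an unadjusted p under 0.05 the counts were 6 lower and 1 higher (Nmnat1 knockdown), 9 and 0 (Nmnat2 knockdown), 2 and 2 (Nmnat1 overexpression), and 4 and 0 (Nmnat2 overexpression). Of all genes, 5.64% and 4.88%, 13.4% and 3.41%, 5.13% and 4.44%, and 5.27% and 5.01% were lower and higher by the same measure, and the count in the Nmnat2 knockdown was near that share. Pttg1 (securin), which restrains separase until anaphase, was at 32.6, 19.8 and 36.0 ppm in scramble, 19.5, 11.1 and 7.92 ppm in the Nmnat1 knockdown and 7.82, 17.8 and 7.74 ppm in the Nmnat2 knockdown, both below every scramble library. It was also at 20.7, 24.1 and 17.5 ppm with empty vector and 11.52, 7.41 and 5.92 ppm with Nmnat2 overexpression (-1.26 ± 0.24 SE, adjusted p = 0.0559). Zwilch, a checkpoint protein of the kinetochore corona, was at 8.99, 13.7 and 8.79 ppm in scramble and 3.77, 3.76 and 3.39 ppm in the Nmnat2 knockdown (-1.28 ± 0.29 SE, adjusted p = 0.0932). Cenpn, which binds centromeric nucleosomes, was among the 3 with the smallest p in all 4 comparisons with a control. It was at 17.74, 23.3 and 12.8 ppm in scramble, 12.2, 8.74 and 6.42 ppm in the Nmnat1 knockdown and 5.62, 6.61 and 6.98 ppm in the Nmnat2 knockdown, and at 18.3, 13.1 and 9.93 ppm with empty vector, 9.86, 5.73 and 7.11 ppm with Nmnat1 overexpression and 6.26, 7.43 and 9.11 ppm with Nmnat2 overexpression. All 4 test groups lay below their control without overlap. The remaining genes named by the same rule were Pmf1 in the Nmnat1 knockdown (27.5 to 34.0 ppm in scramble, 18.5 to 21.9 ppm), Cenpq in the Nmnat2 knockdown (48.8 to 60.03 ppm in scramble, 22.3 to 35.1 ppm), Pkmyt1 and Ckap5 with Nmnat1 overexpression (4.13 to 6.70 and 56.4 to 73.1 ppm with empty vector, 2.63 to 3.39 and 79.0 to 80.6 ppm) and Mad1l1 with Nmnat2 overexpression (41.3 to 49.2 ppm with empty vector, 25.2 to 40.6 ppm), of which Ckap5 alone was higher. Foxm1 was at 2.72, 7.43 and 2.73 ppm in scramble, 0.934, 6.62 and 3.63 ppm in the Nmnat1 knockdown and 2.04, 0.731 and 2.75 ppm in the Nmnat2 knockdown, and Mybl2 (B-Myb) at 1.54 to 8.04, 1.79 to 3.58 and 2.56 to 3.73 ppm, with every group overlapping scramble. Of 46 S phase genes, none passed in the 4 comparisons with a control, and their medians were -0.26 (27 lower and 18 higher of 45 tested) in the Nmnat1 knockdown and -0.15 (30 and 15) in the Nmnat2 knockdown, where the medians of all genes were -0.003 and -0.23. The share of S phase genes that were lower in the Nmnat2 knockdown was near the 66.9% of all genes.

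Of 16 genes of arrest and G1, 15 were tested in the knockdown table and 14 in the overexpression table. In the Nmnat1 knockdown 2 passed the threshold, where 0.144% of all genes did, and none passed in the other comparisons with a control. At an unadjusted p under 0.05, 2 were lower and 2 higher, 1 and 0, 0 and 0, and 1 and 0, in the order used above. Of all genes, 5.64% and 4.88%, 13.4% and 3.41%, 5.13% and 4.44%, and 5.27% and 5.01% were. Cdkn1a (p21), the inhibitor that stops cyclin-dependent kinases and through them keeps DREAM in place, was at 28.8, 23.6 and 16.0 ppm in scramble. It rose to 146.9, 162.9 and 176.1 ppm in the Nmnat1 knockdown (log2 fold change 2.81 ± 0.42 SE, limma adjusted p = 0.0437) and was at 9.82, 38.0 and 12.2 ppm in the Nmnat2 knockdown. This call was lost in 11 of 18 other settings (adjusted p = 0.0532 to 0.30), among them each fit without C1, C2, C3, N1_1, N1_2, N1_3 or N2_3, while the fold change stayed between 2.58 and 2.99. Ccnd3, a G1 cyclin, fell from 80.2, 91.2 and 98.2 ppm to 35.5, 37.7 and 39.4 ppm in the Nmnat1 knockdown (-1.24 ± 0.18 SE, adjusted p = 0.0373). Its call was lost in 10 of 18 settings (adjusted p = 0.0543 to 0.226), among them each fit without C1, C2, C3, N1_1, N1_2, N1_3, N2_1 or N2_3, with the fold change between -1.31 and -1.15. Trp53, which encodes p53, was at 85.6 to 101.8 ppm in scramble and 99.2 to 114.4 ppm in the Nmnat1 knockdown, which overlap.

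Summed markers of the dividing and other cells of the retina differed between these groups, and their part in the members' levels was not tested. The marker lists share genes, so their sums are not separate readings. Pax6 is in both the progenitor and the amacrine list, and Dkk3 in both the progenitor and the Müller glia list. The 11 retinal progenitor markers used, such as Pax6 and Sox2, summed to between 653.6 and 683.4 ppm in scramble and between 360.2 and 406.8 ppm in the Nmnat1 knockdown, where all 11 were lower in mean and 9 without overlap, and 5 had an unadjusted p under 0.05. Of all genes, 12% were lower without overlap and 5.64% lower at that p. In the Nmnat2 knockdown the same sum was 1034, 368.1 and 1048 ppm in N2_1, N2_2 and N2_3, whereas the members' sum was 461.2, 431.6 and 451.6 ppm in them. Gene by gene these markers were split there: 6 of the 11 were lower than in scramble and 5 higher, with a median log2 fold change of -0.04 (all genes -0.23). Without overlap 1 was lower and 1 higher, where 17.2% and 4.73% of all genes were. The 10 neurogenic precursor markers summed to between 1560 and 1647 ppm in scramble and 1604 to 1721 ppm in the Nmnat1 knockdown, which overlap. Of these 10, 6 were lower in the Nmnat1 knockdown and 4 higher. Without overlap 4 were lower and 4 higher, where 12% and 12.8% of all genes were. Their sum was 2124, 1275 and 2115 ppm in N2_1, N2_2 and N2_3, where 1 was lower than in scramble in mean and 9 higher. Müller glia markers summed to between 5082 and 5779 ppm in scramble, 2788 to 2939 ppm in the Nmnat1 knockdown and 2341 to 3785 ppm in the Nmnat2 knockdown. Rod markers summed to between 6425 and 6761 ppm in scramble, 7164 to 7313 ppm in the Nmnat1 knockdown and 2749, 4650 and 2722 ppm in N2_1, N2_2 and N2_3, and amacrine markers to between 489.5 and 514.2 ppm, 272.7 to 297.8 ppm, and 1134, 479.2 and 1128 ppm. Cone markers, at 2259 to 2751 ppm in scramble and 2480 to 2624 ppm in the Nmnat1 knockdown, were at 863.8, 4135 and 816.2 ppm in the same 3 libraries. In these sums N2_2 stood apart from the other libraries of its group. The higher rod sum in the Nmnat1 knockdown was not shared by most rod markers. Of the 11 tested there, 6 were lower and 5 higher, with a median log2 fold change of -0.03. Without overlap 2 were lower and 4 higher, where 12% and 12.8% of all genes were. Microglial markers, of another dividing cell, summed to between 11.1 and 17.5 ppm in scramble and 28.1 to 37.5 ppm in the Nmnat1 knockdown, and endothelial and pericyte markers to between 58.9 and 67.5 ppm and 38.1 to 43.5 ppm. In the overexpression table the progenitor sum was 731.6 to 924.2 ppm with empty vector, 814.6, 1397 and 1319 ppm with Nmnat1 overexpression and 596.7, 1291 and 1327 ppm with Nmnat2 overexpression, with the low value in the library numbered 1 of each overexpression group. Rod markers were at 6701 to 7143 ppm with empty vector, 3576 to 5876 ppm with Nmnat1 overexpression and 3514 to 4662 ppm with Nmnat2 overexpression, and amacrine markers at 353 to 365.8 ppm, 553.2 to 835.5 ppm and 459.1 to 769.4 ppm. Both sums lay apart from empty vector without overlap in each overexpression group, the rod sum below it and the amacrine sum above it.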

How the data were processed

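Levels come from SMART-Seq v4 RNA sequencing of sorted cells, in 6 groups of 3 libraries. The submitters' processing notes name Salmon 0.11.3, sleuth 0.30.0 and GRCm38.p6. The authors deposited the values under the name TPM, but the columns sum to between 14.42 and 29.6 times 1000000, and here they are read as an expression signal, scaled for length, whose unit the labels do not give. Reads from overlapping genes on opposite strands, or from near-identical copies, cannot be separated with this kit. An incomplete last line was left out of each table, and 34385 and 34396 genes remained.

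Columns were rescaled to sum to 1000000 (ppm). A gene was kept if 3 or more of a table's 9 libraries had 1 ppm or more (22233 and 20725 genes). The limma 3.58.1 fit (R 4.3.3) used log2(ppm + 1), which understates the change of low genes, with the 3 groups of a table together, a mean-variance trend, two-sided tests and Benjamini-Hochberg adjustment over all genes of a comparison (threshold 0.05). No test crosses the tables or was run on a list. Without overlap means that all 3 libraries of a group lie beyond all 3 of the control. The fit was tested on simulated data.

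Coordinates are from GENCODE M21 (GRCm38). Sgo1, Sgo2a and Knl1 were found under the older symbols Sgol1, Sgol2a and Casc5 through a RefSeq table, and Rax, on 2 lines of each table, was left out of the markers, as was 1 progenitor marker that is not reported here. Values in every library are given for the 4 members with the smallest p in each comparison with a control and for the most abundant member of each of the 9 role groups. The other members named, and those with values under a changed setting, were chosen after their values were seen. The members and lists were chosen with earlier results of these data known.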

Additional observations from a re-analysis of the deposited data

Results flagged for a closer look

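Of 15 genes of arrest and G1 tested between the knockdowns in limma, 2 passed as lower and 1 as higher in the Nmnat1 knockdown. This tests the difference itself, over 3 libraries against 3, and 2.06% of all genes passed it. The 2 given here, Cdkn1a and Ccnd3, are those that also passed against scramble in the Nmnat1 knockdown. For Cdkn1a the log2 fold change of Nmnat1 against Nmnat2 knockdown was 3.2 (adjusted p = 0.00606), with 146.9 to 176.1 ppm in the Nmnat1 knockdown and 9.82 to 38.0 ppm in the Nmnat2 knockdown. For Ccnd3 it was -1.0 (adjusted p = 0.0213), with 35.5 to 39.4 ppm and 66.6 to 83.5 ppm. The Ccnd3 call was lost in 7 of 18 other settings (adjusted p = 0.0792 to 0.109): without the mean-variance trend, with 2 groups only, and without N1_1, N1_2, N1_3, N2_1 or N2_3. The Cdkn1a call held in the 18 settings, with an adjusted p of 0.0462 at most. No G2 or M phase member met the same test.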

How the results depend on the processing

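Counts of members past the threshold were 0 in the fits reported and moved to 3 (Nmnat1 knockdown), 12 (Nmnat2 knockdown), 10 (between the knockdowns), 1 (Nmnat1 overexpression) and 2 (Nmnat2 overexpression) with array weights, to 3 in the Nmnat1 knockdown with 2 groups only, and to 1 and 4 with Nmnat1 and Nmnat2 overexpression without the 3 libraries numbered 1. Leaving out 1 library gave 0 to 3, 0 to 6 and 0 to 4 members in the 3 knockdown comparisons, the highest count each time without N2_2. The count was 0 under the other settings. The share of all genes that passed with array weights is not given here, so those counts cannot be read against it. Over the settings, the count over all genes reached 5101 in the Nmnat2 knockdown and 6072 between the knockdowns. With 1 library left out it reached 3359 and 2933 there. For 2 groups only, without N2_2 and without the libraries numbered 1, the shares of all genes are given above.

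The median log2 fold change of the members tested was -0.33 in the Nmnat1 knockdown with a pseudocount of 5. In the Nmnat2 knockdown it was -0.71 and -0.29 with pseudocounts of 0.25 and 5, -0.40 with median-of-ratios scaling, -0.0812 with quantile normalization, and -0.69 to -0.51 with 1 library left out. Between the knockdowns it was 0.13 and turned to -0.0944 with median-of-ratios scaling, -0.24 with quantile normalization, -0.0370 with array weights and -0.0193 without N2_2 (-0.0193 to 0.16 with 1 library left out). With Nmnat1 overexpression it was -0.0591 with a pseudocount of 5, -0.0476 with quantile normalization, -0.21 with array weights, -0.25 without the libraries numbered 1 and -0.19 to -0.0543 with 1 library left out. With Nmnat2 overexpression it was -0.01 and ran from -0.19 without the libraries numbered 1 to 0.0081 without v2, the 1 setting of 20 that turned its sign. Between the overexpression groups it was 0.0534, 0.13, 0.0841 and 0.0578 with median-of-ratios scaling, quantile normalization, array weights and without the libraries numbered 1, and -0.0790 to 0.10 with 1 library left out. The cause of these shifts was not tested. The 27 gene results recomputed under these settings kept their sign in all of them; for the other genes named this was not counted. Counts over all genes ranged from 0 to 1826, 0 to 5101, 83 to 6072, 2 to 1951, 3 to 1431 and 2 to 51 in the 6 comparisons, in the order Nmnat1 knockdown, Nmnat2 knockdown, between the knockdowns, Nmnat1 overexpression, Nmnat2 overexpression and between these.

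In the overexpression table libraries of the same number correlated at 0.0271 to 0.461 in their deviations from the group means, not over 0.1 in every pair. Among the Nmnat2 libraries v3 correlated best with another number (0.0601, against 0.0271 with its own), as did v2 (0.142 against 0.124) and N1_3 (0.165 against 0.139). With a replicate block 0 members passed in any of these 3 comparisons, the medians were -0.12, -0.01 and -0.01, and 187 and 269 genes passed against the empty vector instead of 25 and 114. In the knockdown table no paired fit was made, because the columns show the group but carry no name of a single sample.

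At the depth of these libraries a member near 1 ppm rests on few reads, and 23 of the 47 had a mean under 5 ppm, so that their differences were not measurable unless large.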
